A study of Homo sapiens with 6 samples.

Results

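The major histocompatibility complex (MHC) on the short arm of chromosome 6 was examined here for H3K4me2, histone H3 dimethylated at lysine 4. ChIP-seq of this mark was carried out in the prostate cancer line LNCaP, which responds to androgen. The reference MHC was taken as chromosome 6 from 28.5 to 33.5 Mb (hg19), and a region belonged to it when its summit lay in that interval. By this rule, 135 of 101165 records of the vehicle list, 189 of 129776 of the list after 4 h of GSK2879552 (the 4 h list) and 162 of 128552 of that after 24 h (the 24 h list) were reference MHC regions. The hg19 assembly also carries 7 alternate versions of the MHC as separate sequences, named apd, cox, dbb, mann, mcf, qbl and ssto. All records on them were taken as haplotype records, and they numbered 601 (vehicle), 934 (4 h) and 734 (24 h). Reference regions and haplotype records are given apart throughout.

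The study asked how inhibiting LSD1 (KDM1A), a demethylase of mono- and dimethylated H3K4, alters this mark. LNCaP cells were kept in charcoal-stripped serum, which is depleted of hormones, and then given vehicle or the LSD1 inhibitor GSK2879552 for 4 or 24 h. There were 6 samples, 2 replicates in each of 3 groups, but each group was deposited as 1 peak list made from both of its replicates. The labels of the control samples name vehicle without GSK. Those of the inhibitor samples name the androgen DHT together with GSK2879552, while the treatment protocol names GSK2879552 alone. An effect of the androgen and an effect of the inhibitor therefore cannot be told apart. No value below has a replicate error, no test between groups was possible, and intervals are 95% Wilson intervals that cover counting error only.

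As background, the MHC holds some of the most gene-dense and most variable sequence of the human genome. Its class I genes lie toward the telomere and present peptides made inside the cell. Its class II genes (such as HLA-DRA) lie toward the centromere and are mostly used by professional antigen-presenting cells, next to TAP1, TAP2, PSMB8 and PSMB9, which make and carry peptides for class I. The class III stretch between them holds complement genes, TNF and housekeeping genes. A long run of olfactory receptor genes lies near the telomeric end. H3K4me2 marks promoters and enhancers that are active or poised. Because no hg19 annotation was used, no region below was assigned to a gene, and none of these classes was placed on the coordinates.

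The reference MHC was not poor in regions, but its regions were low. Over 599 windows of the same length tiled along chromosomes 1 to 22 and X, the median window held 160 regions in the vehicle list, 215 in the 4 h list and 211 in the 24 h list. The MHC thus held somewhat fewer regions than the median window in each list, and 39.1%, 41.4% and 30.2% of windows held fewer still. Its summits, in contrast, stood near the bottom of these windows. Height is used here for the fragments that cover a summit, in multiples of the background that a list has over the whole genome. The median MHC region had a height of 7.68 in the vehicle list, 7.97 in the 4 h list and 7.12 in the 24 h list. In the rest of the genome, the median heights were 11.04, 11.2 and 10.7. Only 16 (vehicle), 31 (4 h) and 12 (24 h) of the 599 windows had a lower median height than the MHC.

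In fragments, the median reference MHC summit was covered by 16 in the vehicle list, 15 in the 4 h list and 14 in the 24 h list, against 23, 21 and 21 in the rest of the genome. The stretches of the same length on either side of the MHC did not share this. Below it, the median heights were 13.0 (vehicle), 15.4 (4 h) and 14.8 (24 h), and above it they were 10.6, 12.8 and 12.0. High summits were scarce as well. A height of at least 64 was reached by 1 of the 135 vehicle regions in the MHC (0.741%), against 7.10% in the rest of the genome. In the stretch above it was reached by 21 of 301 (6.98%) and in the stretch below by 5 of 317 (1.58%), so the lower stretch held few as well. No MHC region reached it in either GSK list, but such summits were rare there in general. In the rest of the genome 1.56% of 4 h regions and 0.413% of 24 h regions did. The stretch below held 0 in each GSK list, and the stretch above held 2 at 4 h and 0 at 24 h.

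Fold enrichment, which the peak caller measures against the local background, was lower in the MHC as well. The median fold enrichment of vehicle MHC regions was 4.77 (interquartile range 3.89 to 5.68), against 4.95 in the rest of the genome. For 4 h it was 4.51 against 4.86, and for 24 h it was 4.08 against 4.72. Ranked by fold within a list, the median MHC region stood at percentile 44.7 (vehicle), 40.9 (4 h) and 34.8 (24 h), against 49.0 to 50.4 in the rest of the genome. Above the 90th percentile of fold were 4.44%, 2.65% and 2.47% of MHC regions. In the vehicle list, 48.9% of MHC regions had a background at the genome-wide minimum, compared with 26.9% in the rest of the genome. These shares were 48.1% against 29.1% for 4 h and 50.6% against 26.4% for 24 h. The median MHC summit was thus smaller, and a background at the minimum was more frequent, than in the rest of the genome. How often both fell on the same region was not counted.

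Depth was similar in the 3 lists. As recovered from the peak values, it was 9.43 tags per kb of effective genome for vehicle, 10.1 for 4 h and 8.98 for 24 h. Fragment lengths, read from the shortest peak, were 221 bp in vehicle, 186 bp at 4 h and 219 bp at 24 h, so 4 h heights rest on shorter fragments. The part of fragment length in the 4 h values was not tested.

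Along the reference MHC, the regions were unevenly placed. Counting up from the lower end in 10 windows of 0.5 Mb, the vehicle list held 14, 0, 8, 9, 14, 18, 26, 6, 5 and 35 regions. The top window, from 33.0 to 33.5 Mb, held the most vehicle regions. The second window, from 29.0 to 29.5 Mb, held no region in any of the 3 lists. The longest stretch without a vehicle summit ran from position 28892419 to 29521299 and measured 629 kb, and it measured 642 kb in the 4 h list and 685 kb in the 24 h list. The median distance between neighbouring vehicle summits was 10.8 kb, so this stretch was a wide gap. The second longest stretch without a summit lay between 32157127 and 32563732 in the vehicle list (407 kb) and began near the same place in both GSK lists (362 and 372 kb).

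**Figure D1:**
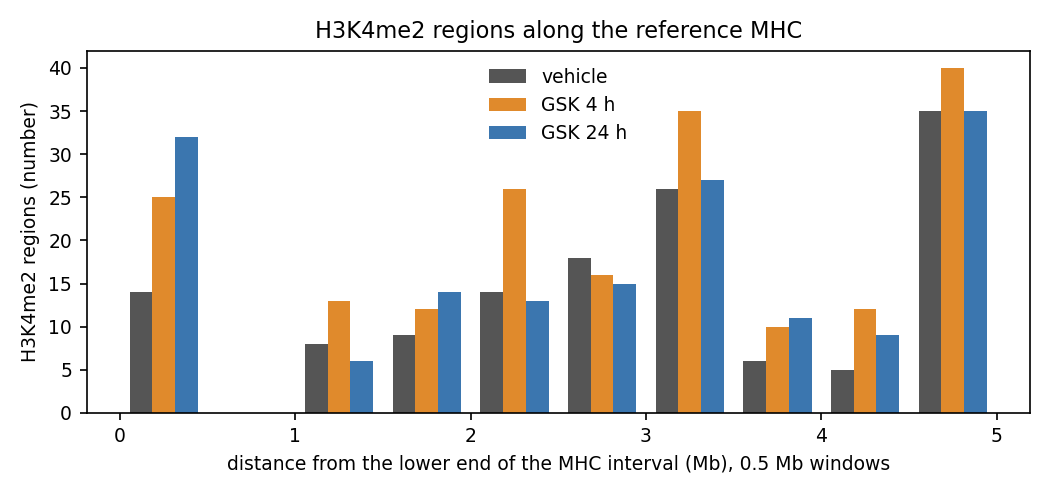
Number of H3K4me2 regions (y axis) in each 0.5 Mb window of the reference MHC, by distance from the lower end of the interval in Mb (x axis), for the vehicle, 4 h and 24 h lists. The second window is empty in all 3 lists, the last holds 35, 40 and 35 regions, and the first holds 14 (vehicle), 25 (4 h) and 32 (24 h).

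The GSK lists held more reference MHC regions than the vehicle list, in about the proportion seen genome-wide. The number was 1.40 times that of vehicle at 4 h and 1.2 times at 24 h, against 1.28 and 1.27 in the rest of the genome. As a share of the whole list, the reference MHC made up 0.133% (95% interval 0.113 to 0.158) for vehicle, 0.146% (0.126 to 0.168) for 4 h and 0.126% (0.108 to 0.147) for 24 h. These intervals overlap. The length covered by MHC regions was 63.0 kb (vehicle), 84.1 kb (4 h) and 65.3 kb (24 h), so at 24 h the additional regions added little length. Among the better supported regions the increase was small at 4 h and absent at 24 h. At a −log10 q-value of at least 10, the MHC held 30 regions in the vehicle list, 33 in the 4 h list and 23 in the 24 h list, or 22.2%, 17.5% and 14.2% of its regions. The rest of the genome held 45460, 56855 and 52792 at that threshold, or 45.5%, 44.4% and 41.6%. With each list cut to the length of the shortest by p-value, the MHC held 135, 128 and 95 regions.

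The windows did not move together. The lowest window held 14 vehicle regions, 25 at 4 h and 32 at 24 h, whereas the highest held 35, 40 and 35. The 8 windows between them held 86, 124 and 95. At a −log10 q-value of at least 10, the lowest window held 6, 7 and 8 regions and the highest 7, 10 and 9, while the 8 windows between held 17, 16 and 6. By these counts, the lower number of well supported regions at 24 h came from the interior of the interval and not from its edges. This grouping of windows was chosen after seeing the data, so it is a description only. All 14 vehicle regions of the lowest window overlapped a region in each GSK list. Compared with the highest overlapping region, their median log2 ratio of height to vehicle was 0.50 at 4 h and 0.28 at 24 h. In the 8 middle windows, 59 of 86 vehicle regions overlapped a 4 h region and 52 a 24 h region, with median log2 ratios of 0.15 and -0.11. In the highest window, 29 of 35 overlapped at 4 h and 26 at 24 h, with medians of 0.15 and -0.01. The 2 edge windows thus did not have the same values, but they hold only 14 and 35 vehicle regions. Whether they differ beyond counting error was not tested. In the rest of the genome, 84.4% and 86.1% overlapped, with medians of 0.26 and 0.18.

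Fewer vehicle regions of the MHC were found again in the GSK lists than elsewhere. Of the 135 reference regions, 102 overlapped a 4 h region by at least 1 bp (75.6%, interval 67.7 to 82.0), and 33 did not. Over all vehicle regions, 15.7% had no overlapping 4 h region. At 24 h, 92 of 135 were overlapped (68.1%, 59.9 to 75.4), and 43 were not, against 14.0% of all vehicle regions. The corresponding shares in the rest of the genome were 84.4% and 86.1%. To set the MHC beside regions of like height, the rest of the genome was also weighted to its vehicle heights by 10 height classes. That share was 78.4% at 4 h, within the interval of the MHC, and 81.8% at 24 h, above it. The lower share at 4 h was therefore not distinguishable from that of other regions of like height at this number of regions.

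In the other direction the MHC did not fall below regions of like height. Of the 4 h regions, 54.5% (47.4 to 61.4) overlapped a vehicle region, and 86 of 189 did not, against 33.0% of all 4 h regions. Of the 24 h regions, 59.3% (51.6 to 66.5) overlapped a vehicle region, and 66 of 162 did not, against 32.0% of all. Elsewhere at the same heights, the overlapping shares were 52.2% (4 h) and 48.4% (24 h), so that at 24 h the MHC share lay above. Set against each other, the GSK lists shared 62.4% (55.3 to 69.0) of the 4 h regions, and 71 had no 24 h overlap, against 21.8% of all. Of the 24 h regions, 75.3% (68.1 to 81.3) overlapped a 4 h region and 40 did not, against 22.3% of all. Elsewhere at the same heights, these shares were 68.6% of 4 h regions, within the interval of the MHC, and 63.4% of 24 h regions, below it.

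The lists merged to 242 reference MHC regions. Of these, 79 (32.6%) had a record in all 3 lists, compared with 47.9% in the rest of the genome. A further 26 (10.7%) were in the vehicle list alone, compared with 5.44% in the rest of the genome. The 4 h list alone accounted for 55 (22.7%, against 14.5% in the rest of the genome), the 24 h list alone for 32 (13.2% against 14.3%) and both GSK lists without vehicle for 29 (12.0% against 11.0%). Vehicle regions in neither GSK list were a little lower than those in both, with a median of 15 against 18 fragments at the summit. The 4 h regions with no vehicle overlap had a median of 13 fragments and the others 17. At 24 h, the medians were 11.5 and 16.

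The 5 highest vehicle summits of the reference MHC are given here with the haplotype records that lined up with them, as described further on. In each GSK list, the highest record that overlapped the vehicle record on the same sequence was read. These regions were picked for their vehicle height, which alone favours lower values in the other lists, so their values are a description. The comparison with regions of the same vehicle height elsewhere follows them. Copies of a region on several sequences are not separate evidence, as described further on, so their number adds no support.

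The highest vehicle summit of the MHC lay at chr6:33395146-33396371 and was covered by 171 fragments, with a fold enrichment of 9.56 and 104 for its −log10 q-value. On the reference, 65 fragments covered the overlapping 4 h summit and 41 the 24 h summit. In both GSK lists the vehicle region was overlapped by 2 separate records. The ssto haplotype had a record in step with it, with 200 fragments in the vehicle list, 62 in the 4 h list and 59 in the 24 h list. By overlapping records, both copies were thus lower in each GSK list than in vehicle. On ssto a further 24 h record, from 4872679 to 4873714 with 73 fragments, lay near the vehicle record (4875618 to 4876678). It did not overlap that record and is not counted in these values.

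The second lay at chr6:31869360-31869942. It had 85 fragments in the vehicle list, 24 in the 4 h list and 13 in the 24 h list. On cox the values were 82, 17 and 17 fragments, on dbb 86, 20 and 11, and on mcf 62, 22 and 16. All 4 copies were lower in both GSK lists, but they are not replicates of each other. On the reference, the log2 ratio of height to vehicle was -2.62 at 24 h, the lowest of the MHC among matched regions.

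The third lay at chr6:30851824-30852605, with 60 fragments in the vehicle list, 21 in the 4 h list and no overlapping record in the 24 h list. On cox, mann, mcf and qbl, the vehicle summits had 55, 61, 66 and 62 fragments and the 4 h summits 14, 21, 20 and 20. At 24 h, mann had 14 and mcf 18, and cox and qbl had no overlapping record. The apd record differed, with 15 fragments in the vehicle list, 12 in the 4 h list and 15 in the 24 h list.

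The fourth, at chr6:33244693-33245188, had 48 fragments in the vehicle list and 19 at 4 h, with no overlapping record at 24 h. Its 4 haplotype copies (cox, dbb, mcf and qbl) had 43 to 49 fragments in the vehicle list and 14 to 19 at 4 h. At 24 h, dbb had 9 and mcf 12, and cox and qbl had none overlapping. The fifth one, at chr6:33378809-33379171, had 45 fragments in the vehicle list and 17 at 4 h. On qbl the values were 49 and 19 fragments and on ssto 52 and 20. None of its 3 copies had an overlapping record in the 24 h list.

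**Figure D2:**
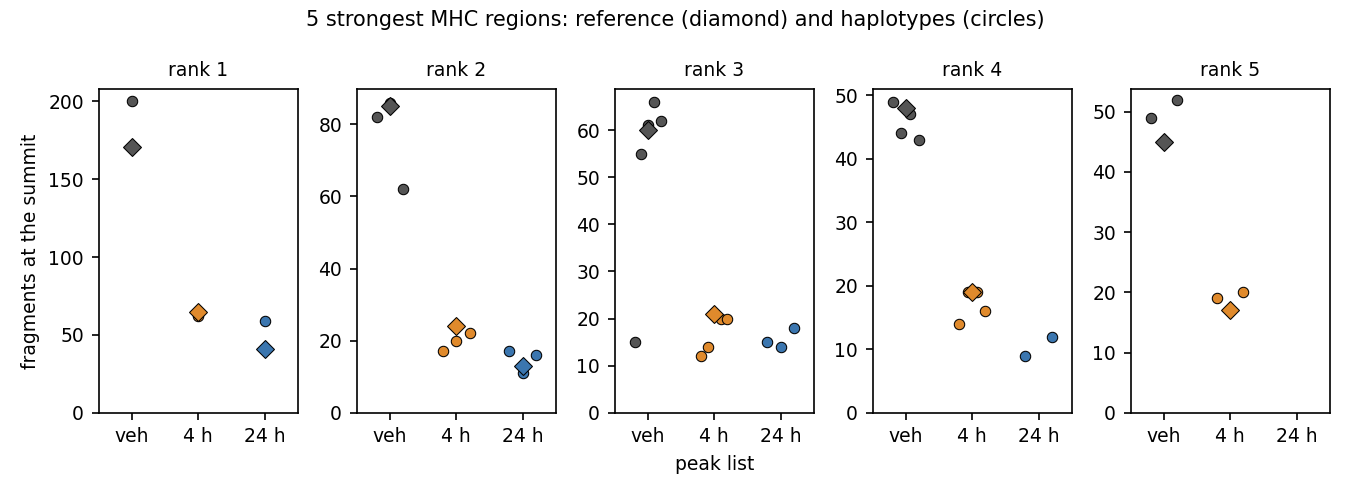
Fragments covering the summit (y axis, linear from 0) at the 5 highest vehicle regions of the MHC, on the reference (diamond) and on lined-up haplotype sequences (circles), by peak list (x axis; veh is vehicle); a sequence with no overlapping record has no point. At rank 1 the copies go from 171 and 200 vehicle fragments to 65 and 62 at 4 h, and apart from 1 circle of 15 vehicle fragments at rank 3 (apd) all vehicle points lie above all GSK points of their panel. The points of a list in a panel are copies of the same region and not replicates.

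Lower heights in the GSK lists were found among the higher regions of the MHC and less often among its lower ones. For every vehicle region, the highest overlapping region of a GSK list was taken. Among the 11 reference MHC regions with a vehicle height from 16 to 64, all 11 had a lower 4 h height, with a median log2 ratio of -1.19. At 24 h, 7 of the 11 (63.6%) were overlapped, 5 of these were lower, and the median was -0.998. In the rest of the genome, regions of the same vehicle height had median log2 ratios of 0.21 at 4 h and 0.06 at 24 h. There, 8494 of 24592 overlapped regions were lower at 4 h and 10434 of 24210 at 24 h, with 95.8% of the regions overlapped at 4 h and 94.3% at 24 h. Values close to those of the MHC were found in the rest of the genome among its 7090 regions with a height of at least 64, which had medians of -1.21 and -1.72. The single MHC region of that height had ratios of -1.25 and -1.98.

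Below a vehicle height of 16, the MHC differed less from other regions. Between 8 and 16, 42 of 52 MHC regions were overlapped at 4 h with a median log2 ratio of 0.21, and 41 at 24 h with a median of -0.05, against 0.32 and 0.25 in the rest of the genome. Under 8, the medians were 0.30 and 0.19 in the MHC and 0.47 and 0.41 in the rest of the genome. A region with no overlap gives no ratio, so medians of weak regions rest on those that were called again.

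**Figure D3:**
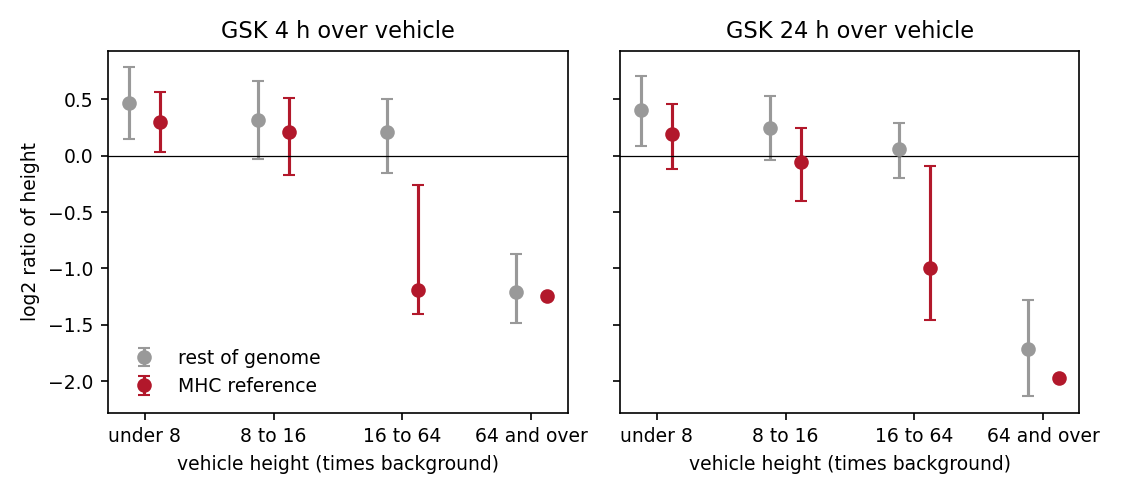
Median log2 ratio of height to vehicle (y axis) by vehicle height in multiples of background (x axis), for 4 h (left) and 24 h (right); bars are the interquartile range over regions, not a replicate error. From 16 to 64 the 11 MHC regions (red) have medians of -1.19 and -0.998 where the rest of the genome (grey) has 0.21 and 0.06.

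With the stricter demand that a region be matched 1 to 1 in all 3 lists, 59 reference MHC regions could be compared. Their median log2 ratio of height to vehicle was 0.15 at 4 h and -0.02 at 24 h, against 0.25 and 0.15 over all 52791 matched regions. At 4 h, 7 MHC regions were lower by at least 1.5-fold (11.9%), against 10.4% of all matched regions, and 11 were higher (18.6%), against 24.5%. At 24 h, 7 were lower (11.9%), against 11.3%, and 4 were higher (6.78%), against 15.2%. Matched regions of the rest of the genome at the same vehicle heights had medians of 0.34 and 0.27, with 3.20% and 2.70% lower and 30.3% and 21.4% higher by that limit. By these counts, the share lowered in the MHC was near that of all matched regions and above that of regions of like height. The share raised was smaller than both. These MHC shares rest on 4 to 11 of 59 regions and have no interval. Whether they differ from the other shares beyond counting error was not tested. Both ratios use the same vehicle list.

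Among matched regions with a height of at least 16 in the vehicle or 24 h list, of which there were 8, the lowest ratios at 24 h were all in the interior of the interval. Next to chr6:31869360-31869942, described above, chr6:31763441-31764039 went from 42 vehicle fragments to 11 at 4 h and 12 at 24 h, with log2 ratios of height of -1.79 and -1.72. The third lowest, chr6:32055041-32055825, went from 34 fragments to 18 and 14, with log2 ratios of -0.77 and -1.20. The 3 highest ratios all lay in the lowest window. The region at chr6:28641768-28642660 had 26 fragments in the vehicle list, 36 at 4 h and 34 at 24 h, with log2 ratios of 0.62 and 0.47. At chr6:28602599-28603560 there were 29, 38 and 35 fragments, with log2 ratios of 0.54 and 0.36. At chr6:28557552-28558058 there were 37, 27 and 35 fragments, with log2 ratios of -0.31 and 0.00. The filter itself favours both ends, since the 3 lowest passed it through the vehicle list alone and the first 2 of the highest through the 24 h list alone, so their directions are no result.

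Some well enriched vehicle regions of the MHC had no overlap in either GSK list. By fold enrichment, the first was chr6:30043002-30043459, with 27 fragments, a fold of 9.08 and 18.9 for its −log10 q-value. The second was chr6:31211817-31212629, with 24 fragments and a fold enrichment of 8.11. The third was chr6:32064042-32064783, with 22 fragments and a fold enrichment of 7.46. Their fold enrichments ranked at percentiles 89.8, 85.6 and 81.5 of the vehicle list, so they were not among its weakest regions by that measure. By fragments they lay near the vehicle median of 23 in the rest of the genome.

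The 3 highest ranked regions present in both GSK lists and absent from vehicle had fewer fragments. The first by rank spanned chr6:32121943-32122962 over the 2 lists and had 15 fragments in each, with fold enrichments of 5.55 at 4 h and 5.39 at 24 h. The second, chr6:32820331-32821423, had 16 fragments at 4 h and 12 at 24 h. The third, chr6:32144788-32145124, had 17 and 16. Each of these GSK summits had fewer fragments than the 22 to 27 of the 3 vehicle regions named above. The vehicle regions were picked by their percentile in 1 list and the GSK regions by the lower of 2 percentiles. The rules thus favour this difference, and it is no result about all regions of either kind.

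On the alternate haplotypes, both GSK lists held more records than the vehicle list. The numbers of 601 (vehicle), 934 (4 h) and 734 (24 h) make ratios to vehicle of 1.55 and 1.22. As a share of the list, they made up 0.594% (0.549 to 0.643) for vehicle, 0.720% (0.675 to 0.767) for 4 h and 0.571% (0.531 to 0.614) for 24 h. The 4 h interval lay above both others. Many haplotype records repeat the same reference region, as described further on, so they are not separate counts. Intervals on haplotype shares, here and below, are therefore too narrow, and the separation at 4 h is no result. On the reference, the intervals of the 3 lists overlapped. At a −log10 q-value of at least 10 the counts were 118, 125 and 85, so most of the additional records at 4 h were weakly supported. The covered length was 253 kb (vehicle), 365 kb (4 h) and 290 kb (24 h).

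All 7 haplotypes held more records in the 4 h list than in the vehicle list, but to different extents. The smallest ratio was on apd, with 46 records in the vehicle list, 61 at 4 h and 47 at 24 h. The largest was on ssto, with 65, 132 and 96. On cox, which held the most records, there were 132, 189 and 164. Between these lay dbb with 108, 148 and 112, mann with 72, 111 and 87, mcf with 81, 137 and 109, and qbl with 97, 156 and 119. In each list cox held the most records, dbb and qbl came next and apd held the fewest.

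**Figure D4:**
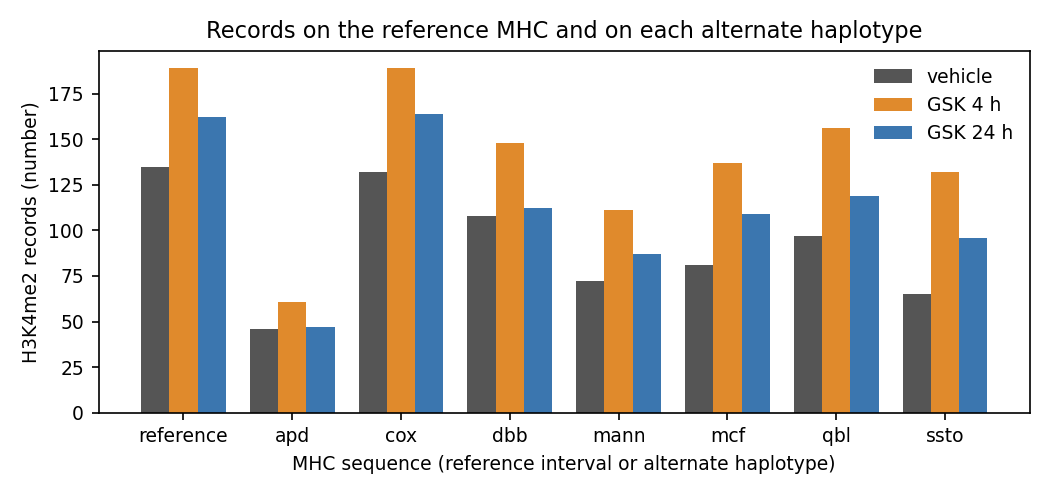
Number of H3K4me2 records (y axis) on the reference MHC interval and on each of the 7 alternate haplotype sequences (x axis), for the vehicle, 4 h and 24 h lists. Every sequence has its highest bar at 4 h, from 61 records on apd to 189 on cox and on the reference.

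Haplotype records were of similar height to reference MHC regions. Their median height was 7.20 in the vehicle list, 7.44 in the 4 h list and 6.61 in the 24 h list, with 15, 14 and 13 fragments at the median summit. Records on alternate sequences of other chromosomes, of which there were 83, 109 and 104, did not share this, as their median summit had 25, 26 and 25.5 fragments. The median summit was thus lower on the MHC sequences than among these few records of other chromosomes. The reason for this difference was not tested. The median fold enrichment of the haplotype records was 4.54 (vehicle), 4.44 (4 h) and 4.38 (24 h).

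The highest fold enrichments on the haplotypes fell on different sequences in the 3 lists. In the vehicle list the highest was 14.8 on cox from 1333528 to 1334298 of that sequence, with 75 fragments. In the 4 h list it was 12.1 on dbb from 3865403 to 3866080, with 34 fragments. In the 24 h list it was 10.1 on qbl from 3789155 to 3789853, with 29 fragments. The highest vehicle summit by fragments was the ssto record of 200 fragments given above, and the highest 24 h summit was also on ssto, from 4872679 to 4873714, with 73 fragments.

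Overlap between lists on the haplotypes lay near that on the reference, within its counting intervals for all 4 shares given here. Of the vehicle records, 71.7% (68.0 to 75.2) overlapped a 4 h record and 170 did not, against 15.7% of all vehicle records. At 24 h, 65.6% (61.7 to 69.2) were overlapped and 207 were not, against 14.1% of all. By haplotype, the shares ran from 63.0% (apd) to 78.5% (ssto) at 4 h and from 56.5% (apd) to 71.2% (cox) at 24 h. Of the 4 h records, 48.0% (44.8 to 51.2) overlapped a vehicle record and 486 did not, against 33.2% of all. Of the 24 h records, 54.2% (50.6 to 57.8) did and 336 did not, against 32.0% of all. Among the 244 records matched 1 to 1 in all 3 lists, the median log2 ratios of height to vehicle were 0.15 at 4 h and -0.03 at 24 h, close to the reference values of 0.15 and -0.02.

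The haplotype records were not separate evidence from the reference regions, as many repeated them. For each haplotype, the difference in position between its summits and reference summits of the same list was counted, and a few differences stood out. At the commonest one, 140 pairs of summits lined up on qbl and 112 on cox over the 3 lists, against a median of 12 and 15 pairs at any given difference. Taking the 3 commonest differences for each haplotype and a tolerance of 0.5 kb, 322 of 601 vehicle records (53.6%) lined up with a reference summit. For 4 h, 527 of 934 (56.4%) did, and for 24 h, 391 of 734 (53.3%). At shifted differences, the medians summed over the haplotypes were 46.5, 94.5 and 66, so part of the line-up is of that kind. The 3 differences were picked as the commonest of these same summits, which favours them over a median. The largest number at shifted differences was 37, on qbl in the 4 h list, where 99 records lined up.

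**Figure D5:**
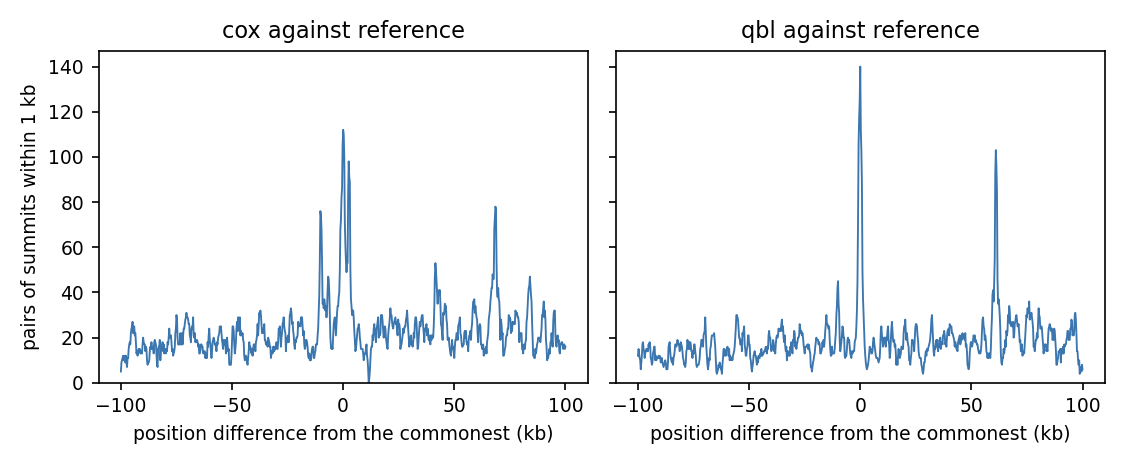
Pairs of haplotype and reference summits of the same list, summed over the 3 lists, that lie within a 1 kb window of a given position difference (y axis), by that difference in kb from the commonest one (x axis), for cox (left) and qbl (right). Narrow peaks of 112 (cox) and 140 (qbl) pairs stand over a level whose median is 15 and 12 pairs.

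Fragments at lined-up summits were compared as well. The median log2 ratio of haplotype to reference fragments was 0.00 in each list. Within 1.5-fold of each other were 89.8% of lined-up pairs in the vehicle list, 78.9% in the 4 h list and 82.4% in the 24 h list. Over every haplotype record paired with every reference region of its list, lined up or not, the shares were 56.8%, 59.1% and 61.1%. Seen from the reference, 99 of the 135 vehicle regions (73.3%) had a lined-up record on at least 1 haplotype, and 55 (40.7%) on 3 or more. In the 4 h list 156 of 189 had one, and in the 24 h list 125 of 162. How reads that fit several of these sequences were placed is not given in the sources used here, and the part of such reads in the number and height of MHC records was not tested.

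The empty second window of the reference had a counterpart on the cox haplotype, which could be read in the same frame. Its lower end lies close to that of the interval by the commonest position difference. The first 0.5 Mb of cox held 16 records in the vehicle list, 31 at 4 h and 31 at 24 h, and the second held none in any list. The higher GSK counts in the first window and the gap after it were thus seen on both sequences, which share a large part of their records.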

How the data were processed

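ChIP-seq for H3K4me2 covered 6 LNCaP samples (vehicle, 4 h and 24 h of GSK2879552, 2 replicates each; whether replicates were separate cultures is not stated). For each group the authors pooled both replicates into 1 deposited list of peaks. The deposited fold enrichment is a ratio of summit to background. The deposited −log10 of the p-value and of the q-value are the peak caller's, and the deposited score follows the q-value. None of these was normalised between lists. The submitters' processing notes name BWA 0.7.2-r351, SAMtools 0.1.18, MACS2 2.0.10.20131216 and hg19 (GRCh37). Settings and any input control are not given in the sources used here.

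Fragments at each summit were recovered as the whole number that gives both the fold, (fragments + 1)/(background + 1), and the Poisson p-value. This succeeded within 0.001 on the −log10 p scale for all MHC records. The step was checked on simulated peaks. Height is fragments over the lowest background of the list, so it is relative to all tags of a library. Overlap meant at least 1 bp. Counts, shares with Wilson intervals, overlaps and log2 height ratios were computed in Python 3.11.15 with pandas 2.3.3 and scipy 1.17.1. No test between groups was made, since a list has no replicate error.

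Named regions were the 5 highest vehicle summits, the 3 vehicle regions in neither GSK list with the highest fold percentile, the 3 regions of both GSK lists alone with the highest lower percentile, and, among regions matched in 3 lists with a vehicle or 24 h height of at least 16, the 3 lowest and 3 highest ratios of 24 h to vehicle. The windows with the most and fewest regions, the longest gap and the haplotype records of highest fold were also named. The interval, lists and rules were chosen with earlier results of these data known. The line-up of haplotypes, the use of the highest overlapping region, the windows grouped into edges and interior, and a −log10 q-value of 30 were chosen after seeing the data. Alternatives were −log10 q-value thresholds of 5 and 10, lists of equal length, merging within 1 kb, overlap of 50%, membership by overlap, a 2-fold limit and fold enrichment in place of height. No hg19 sequence or annotation was used, so no gene was assigned and no sequence is shown.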

Additional observations from a re-analysis of the deposited data

How the results depend on the processing

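No paired analysis was possible because the 2 replicates of a group are pooled in its list, which also keeps either from being left out. Reference counts are given in the order vehicle, 4 h and 24 h. They were 97, 123 and 71 at a −log10 q-value of at least 5, 30, 33 and 23 at 10, and 5, 0 and 0 at the added threshold of 30. With lists of equal length the 24 h count was 95. Haplotype counts were 385, 535 and 348 at 5 and 118, 125 and 85 at 10, and 551 (4 h) and 441 (24 h) with lists of equal length. The higher 4 h count thus held at 5 and 10, and not with lists of equal length. The higher 24 h count held at none of these settings. Merging within 1 kb and membership by overlap kept the order of the reference counts.

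Overlap is given for 6 shares, first of vehicle regions (at 4 h, then 24 h), then of 4 h and 24 h regions with vehicle, and last of 4 h regions with 24 h and the reverse. With 50% of the region it was 63.7%, 54.8%, 41.8%, 49.4%, 46.6% and 59.3%, and with 50% of both regions 51.1%, 48.15%, 36.5%, 40.1%, 37.6% and 43.8%. At a −log10 q-value of at least 5 in both lists it was 66.0%, 51.55%, 51.2%, 71.8%, 43.9% and 73.2%, and at 10 it was 46.7%, 33.3%, 45.45%, 43.5%, 27.3% and 39.1%. With lists of equal length it was 63.7%, 54.1%, 64.8%, 74.7%, 48.4% and 64.2%. In all of these settings fewer vehicle regions overlapped the 24 h list than the 4 h list. These shares were computed for MHC regions only. Whether the MHC lies below the rest of the genome at these settings was therefore not tested.

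For matched heights, the 5 regions with a −log10 q-value of at least 10 in every list had a median log2 ratio of 0.54 at 4 h, and 0 and 0 were lower and 2 and 0 higher by 1.5-fold at 4 and 24 h. With a 2-fold limit, 3 and 4 were lower and 1 and 0 higher. By deposited fold enrichment 7 and 2 were higher. With the highest overlapping region, an added alternative, 12 were lower at 4 h, and 19 and 8 were higher. These counts were made for MHC regions only and have no share over all matched regions at the same settings beside them. The cause of these shifts was not tested. The median of 14 to 16 fragments at an MHC summit bounds the precision of weak regions, and the 12 vehicle regions with a height of at least 16 are too few to subdivide.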
